A study of Mus musculus with 238 samples.

Results

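Ciart, 1 of the 21076 gene rows of the count table, was followed through 15 brain regions and the liver of mice under a dietary and a plasma treatment. It was chosen for its higher RNA level in dietary restricted mice, so its diet values below are a description without a test. Its values in the plasma experiment come from other animals and were tested. Bulk RNA of 238 libraries was sequenced to map where in the old brain each treatment acts, and the liver served as a check of the diet. All mice were C57BL/6JN and 19 months old, and the labels name no altered gene in any group. The diet experiment held 9 females, of which 4 were fed freely (AL) and 5 were dietary restricted (aDR in brain, DR in liver). The plasma experiment held 7 males that were injected behind the eye with plasma of young mice (YMP, 3 mice) or with the buffer PBS (4 mice). Each experiment thus used a single sex, and no young untreated mice are among the groups used here. The labels give neither the hour of sampling nor the hours of feeding.

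Ciart encodes the circadian associated repressor of transcription, also called CHRONO, a nuclear protein of the daily clock. The clock proteins CLOCK and BMAL1 (the product of Arntl) bind short DNA sites called E-boxes and switch on genes whose products, among them the Per, Cry and Ciart proteins, later hold CLOCK and BMAL1 down. RNA of such genes rises and falls each day in most tissues. The suprachiasmatic nucleus of the hypothalamus follows light, while the clocks of liver and other tissues also follow the time of feeding.

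The gene lies on chromosome 3 of GRCm38 (GENCODE M21), minus strand, from 95878503 to 95882251, a span of 3749 bases with 6 annotated transcripts. Ciart-201 has 6 exons and Ciart-202 has 5, and both carry the same 1125 coding bases. The antisense gene C920021L13Rik spans the whole of Ciart on the plus strand and shares 0 exon bases with it. The exons of the 2 genes thus differ in position. The libraries carry no strand, so reads of unspliced C920021L13Rik RNA within Ciart exons could not be told from reads of Ciart. C920021L13Rik was not analysed here. The stretch of promoter shown here holds every E-box found near the start of Ciart. It covers chr3:95882259-95882378 on the minus strand of GRCm38.p6 (RefSeq), from 150 to 31 bases before the annotated start, 5′ to 3′, with each E-box CACGTG in capitals.
Ciart promoter: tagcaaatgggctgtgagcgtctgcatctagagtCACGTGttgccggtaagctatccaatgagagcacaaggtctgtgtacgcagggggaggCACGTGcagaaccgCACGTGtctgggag
The 3 E-boxes begin 116, 58 and 44 bases before the start. Of 32817 RefSeq promoters of the same 300-base length, 7.15% held at least 1 CACGTG on either strand and 29 (0.0884%) held at least 3. In the same window of Ciart there were 0 matches, on either strand, to 5 other motifs. These were the E-box-like CACGTT (in 4.69% of all promoters), the D-box TTATGTAA or TTATGCAA (1.66%), the nuclear receptor half-site AGGTCA (16.3%), the cyclic AMP element TGACGTCA (1.79%) and the glucocorticoid response element (0.475%). Of 24 other clock genes, 19 matched a promoter in the same set and 4 of these held a CACGTG (Per1, Cry1, Bhlhe41 and Tef). A match of letters is a description of the sequence and not a bound site.

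Depth per library lay between 0.606 and 32.4 M counts (M for mega) around a median of 8.44 M, and Ciart received 8 to 1067 counts per library with a median of 219. Levels are given as CPM, the usual depth-scaled count, here on TMM-scaled library totals. The ranges of totals in brain overlapped between the groups, at 1.46 to 19.8 M in aDR, 2.22 to 21.9 M in AL, 0.606 to 15.8 M in YMP and 1.96 to 32.4 M in PBS mice. Marker lists were highest in the labelled tissue for cerebellum, choroid plexus, caudate putamen, olfactory bulb, thalamus, hypothalamus, medulla, motor cortex, anterior hippocampus and liver. Myelin genes had the highest median in pons (25270 CPM), with corpus callosum at 24141 CPM. Choroid plexus genes were also found in libraries of corpus callosum (9.41 to 19868 CPM summed over 10 genes) and SVZ (30.6 to 20467 CPM), and single libraries of caudate putamen (up to 3723 CPM), cerebellum (2066), thalamus (1573) and anterior hippocampus (1519) held them too. In 12 of 229 brain libraries the expression profile lay nearer to the mean profile of another region than to their own. These were choroid plexus of aDR 67, YMP 73 and YMP 77, SVZ of aDR 64, YMP 73, YMP 77 and PBS 72, posterior hippocampus of AL 68 and YMP 77, caudate putamen of PBS 76, and entorhinal and motor cortex of PBS 72. Of the pons libraries, 3 (aDR 64, AL 68 and YMP 77) held only 3.93 to 5.91 CPM of 5 hindbrain markers, where the median was 80.1 CPM, and had 1199 to 1540 CPM of Th, a gene of dopamine neurons. Some differences of Ciart and counts of clock genes that rest on these 15 libraries are also given without them, chiefly where the value moves by over 1.5 times or turns. Because the tissue is bulk, fewer cells that make a transcript and less of the transcript per cell cannot be told apart.

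Ciart was higher in restricted than in freely fed mice in 15 of 15 brain regions. In 14 of them every aDR library was above every AL library, where 1.66% of all gene-by-region comparisons had that order. Since the gene was chosen by this contrast, nothing is read from the count. The log2 difference ran from 0.31 (SE 0.096) in medulla to 1.23 (SE 0.15) in caudate putamen, with a median of 0.82 over the regions. No test of a difference between regions was made for the diet, for the same reason.

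**Figure D1:**
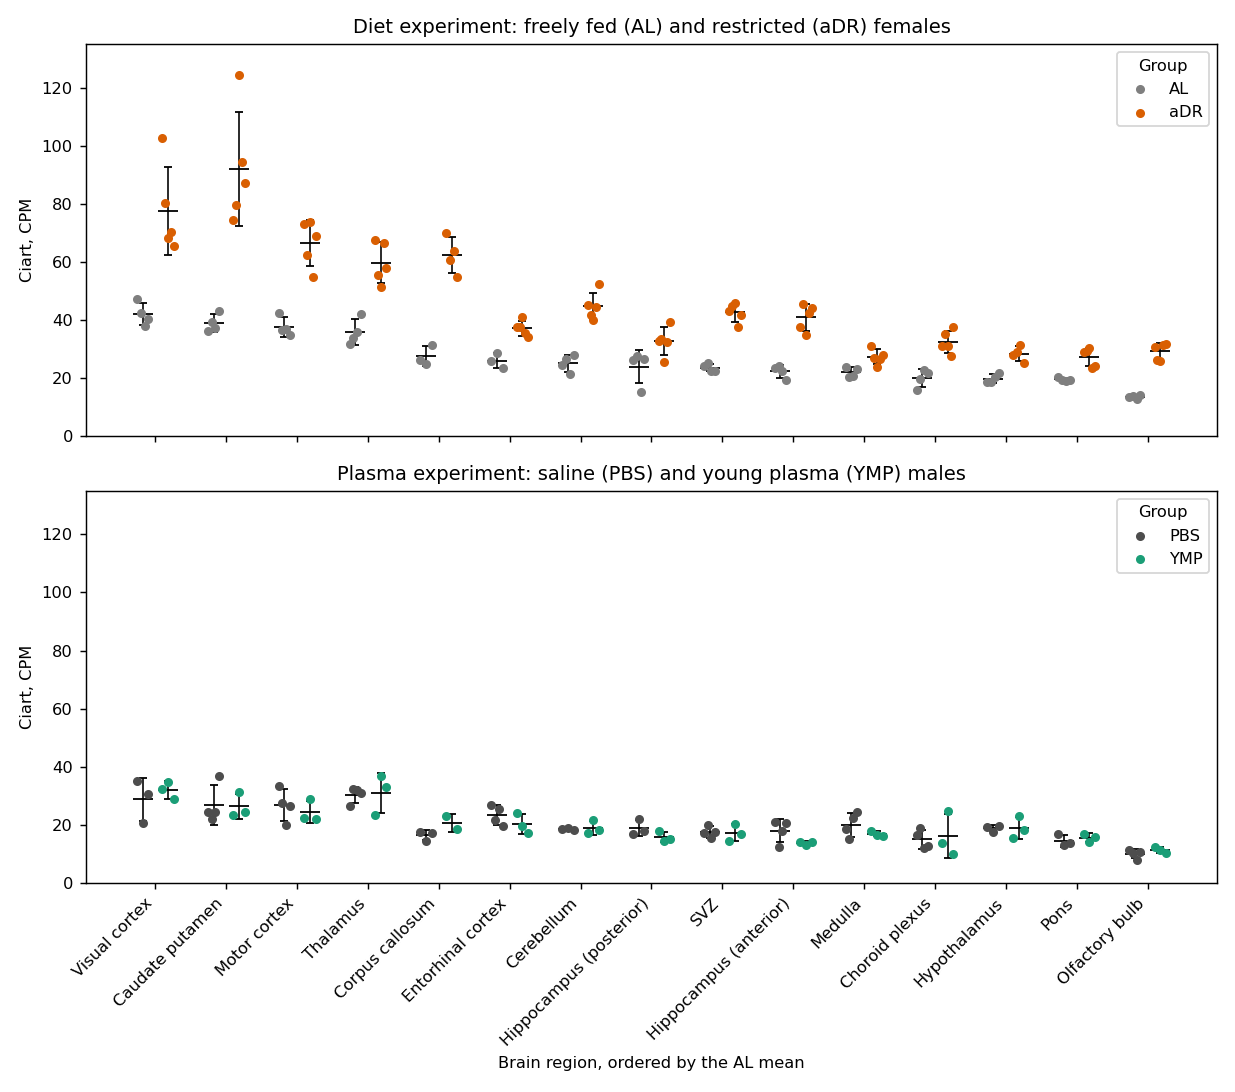
Ciart level (CPM, y axis) in each brain region (x axis, ordered by the AL mean), with 1 point per library and the mean and SD of each group in black. Upper panel: AL and aDR females. Lower panel: PBS and YMP males. The aDR points lie above the AL points in each region except posterior hippocampus, where they overlap, while YMP and PBS points overlap in each region except corpus callosum.

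The caudate putamen, the input station of the basal ganglia, had the largest difference in brain. Its 5 aDR libraries held 74.4, 79.7, 124, 94.3 and 87.3 CPM in the order of the mouse numbers (92.0 ± 19.6, SD, n = 5), and its 4 AL libraries 36.2, 39.5, 37.3 and 43.2 CPM (39.1 ± 3.08, SD, n = 4). The choroid plexus genes summed there to at most 1478 CPM in aDR and 576 CPM in AL libraries, with medians of 27.2 and 22.1 CPM. The lowest restricted mouse there was well above the highest freely fed mouse, and the fold of the means was 2.35. Corpus callosum, the large white matter tract, followed with a log2 difference of 1.17 (SE 0.12). Its aDR libraries held 69.8, 60.8, 63.8 and 55.0 CPM and its AL libraries 26.4, 24.9 and 31.5 CPM. In that region the choroid plexus genes summed to a median of 5509 CPM in aDR and 1224 CPM in AL libraries, within ranges that overlapped (17.4 to 11962 and 50.4 to 11893 CPM). Ciart itself stood at 32.5 ± 3.88 CPM (SD, n = 5) in the aDR libraries of choroid plexus, lower than in any aDR library of corpus callosum. The part of these genes in the difference was not tested. The olfactory bulb came next in size, with a log2 difference of 1.07 (SE 0.088). Its aDR libraries held 30.7, 26.3, 26.0, 31.3 and 31.9 CPM against 13.5, 13.7, 12.96 and 14.3 CPM in AL mice. The AL values of the bulb were the lowest of the 15 regions and were close together, with a coefficient of variation of 4.16%.

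In the cortex the 2 neocortical regions and the entorhinal cortex differed in size. Visual cortex had 103, 80.2, 68.3, 70.5 and 65.5 CPM in aDR mice and 47.1, 42.4, 38.1 and 40.5 CPM in AL mice, a log2 difference of 0.90 (SE 0.11). Motor cortex had 73.2, 62.3, 73.7, 55.0 and 68.9 CPM against 42.6, 36.6, 36.9 and 34.8 CPM, a log2 difference of 0.83 (SE 0.088). The groups were apart in both regions. Entorhinal cortex, the gateway to the hippocampus, had a smaller difference of 0.51 (SE 0.096), with 34.3 to 41.0 CPM in 5 aDR and 23.4 to 28.7 CPM in 3 AL libraries. Anterior hippocampus had 37.7, 45.5, 34.8, 42.5 and 44.2 CPM in aDR mice against 23.4, 24.1, 22.6 and 19.2 CPM in AL mice, a log2 difference of 0.88 (SE 0.11). Posterior hippocampus was the region whose groups overlapped. Its aDR libraries held 32.9, 33.3, 25.6, 32.5 and 39.2 CPM and its AL libraries 26.1, 27.7, 15.4 and 26.7 CPM. The aDR mouse 64 lay below each of the AL mice except mouse 68, which was far below the others. The log2 difference was 0.45 (SE 0.18), and 0.30 without AL mouse 68, whose library had a profile nearer to anterior hippocampus.

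Thalamus, the relay to the cortex, differed by 0.74 (SE 0.11) on the log2 scale, with 51.4 to 67.5 CPM in 5 aDR and 31.9 to 42.2 CPM in 4 AL libraries. Cerebellum differed by 0.82 (SE 0.094), with 40.0 to 52.3 CPM in aDR and 21.3 to 28.02 CPM in AL libraries. Hypothalamus, which holds the suprachiasmatic nucleus and the feeding centres, was among the regions with small differences. Its aDR libraries held 28.1, 28.9, 31.6 and 25.3 CPM and its AL libraries 18.6, 18.7, 20.3 and 21.7 CPM, a log2 difference of 0.53 (SE 0.098). Pons and medulla had smaller fitted differences still, without a test between regions. Pons had 29.0, 29.4, 30.3, 23.6 and 24.3 CPM in aDR mice against 20.4, 19.5, 19.1 and 19.5 CPM in AL mice, a log2 difference of 0.49 (SE 0.12). In pons, aDR mouse 67 gave a library in which the 10 most abundant genes took 23.4% of counts, and without this mouse the difference was 0.52. Its myelin genes summed to 6903 CPM, below every other pons library. Without the pons libraries low in hindbrain markers, aDR 64 and AL 68, the difference was 0.44. Medulla had 31.1, 27.1, 24.0, 26.5 and 27.95 CPM against 23.9, 20.3, 20.8 and 23.2 CPM, so that the lowest restricted and the highest freely fed mouse were nearly level. The regions at the ventricles lay between these extremes. SVZ differed by 0.86 (SE 0.079), with 37.8 to 45.8 CPM in aDR and 22.6 to 25.2 CPM in AL libraries. The choroid plexus genes summed there to a median of 5189 CPM in aDR and 1719 CPM in AL libraries, and their part in the difference was not tested. Choroid plexus differed by 0.69 (SE 0.13), with 27.6 to 37.6 CPM against 15.8 to 22.8 CPM.

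**Figure D2:**
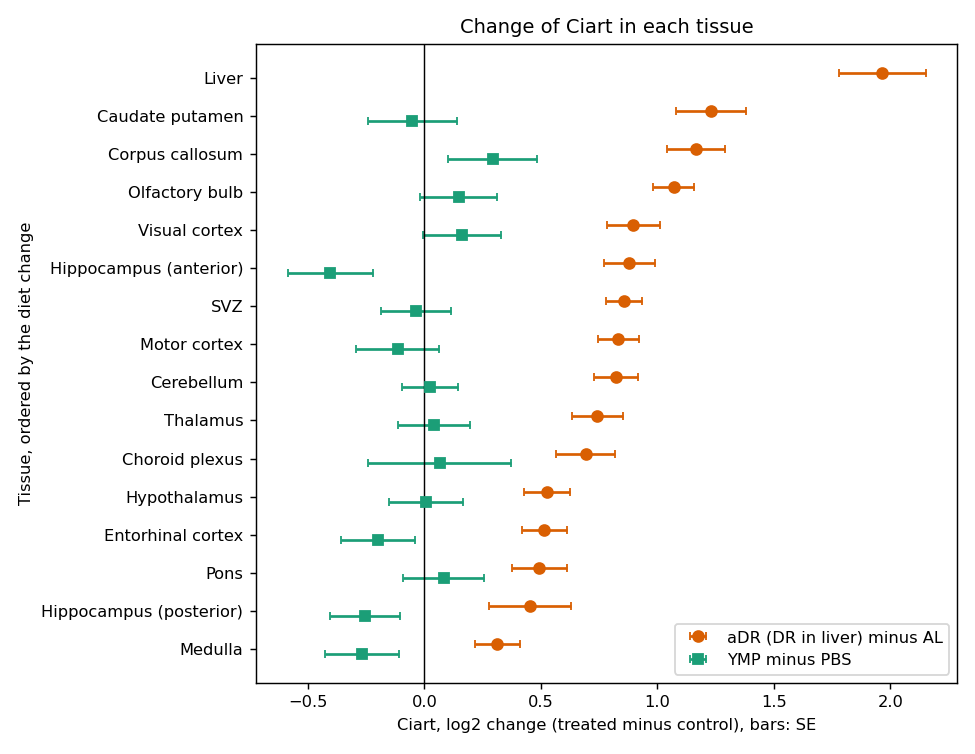
Log2 difference of Ciart between treated and control mice (x axis) in liver and each brain region (y axis, ordered by the diet difference), with the SE as bars. Circles are aDR (DR in liver) minus AL and squares YMP minus PBS. Each circle lies above 0, from 0.31 to 1.97, and the squares lie on both sides of 0, from -0.40 to 0.29.

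In liver the difference was larger than in any of the brain regions. The 5 DR livers held 20.5, 26.4, 22.8, 19.2 and 28.8 CPM (23.5 ± 4.00, SD, n = 5) and the 4 AL livers 6.46, 5.00, 7.59 and 5.26 CPM (6.08 ± 1.19, SD, n = 4). Every DR liver was above every AL liver, an order that 2.36% of 11815 genes had, and nothing is read from it for the chosen gene. The fold of the means was 3.87 and the log2 difference 1.97 (SE 0.19). The liver and the brain were scaled separately, so their CPM levels are not compared.

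When each mouse was reduced to 1 value, its log2 CPM over the brain regions after the region means had been removed, the diet groups lay far apart. The values were 5.51, 5.43, 5.38, 5.40 and 5.44 in the aDR mice and 4.68, 4.69, 4.60 and 4.73 in the AL mice. The SD within a group was 0.047 in aDR and 0.056 in AL mice, and the difference of the means was 0.76 (SE 0.037), a fold of 1.69. Of 15616 genes, 4.16% had every aDR mouse above every AL mouse. Mouse 61 had the highest brain value of the aDR mice, and mouse 67 had the highest liver level. The mouse number in the labels marks the animal. The fits within a region and those to 1 value per mouse thus have p-values that measure the spread between these mice. In aDR mouse 62 all 15 brain libraries were above the median of their region, in mouse 61 it was 13 of 14 and in mouse 64 it was 8 of 14, while in each AL mouse it was 0. The median was taken over both diet groups, so no AL library could lie above it where the groups did not overlap. These counts therefore restate the contrast by which Ciart was chosen.

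**Figure D3:**
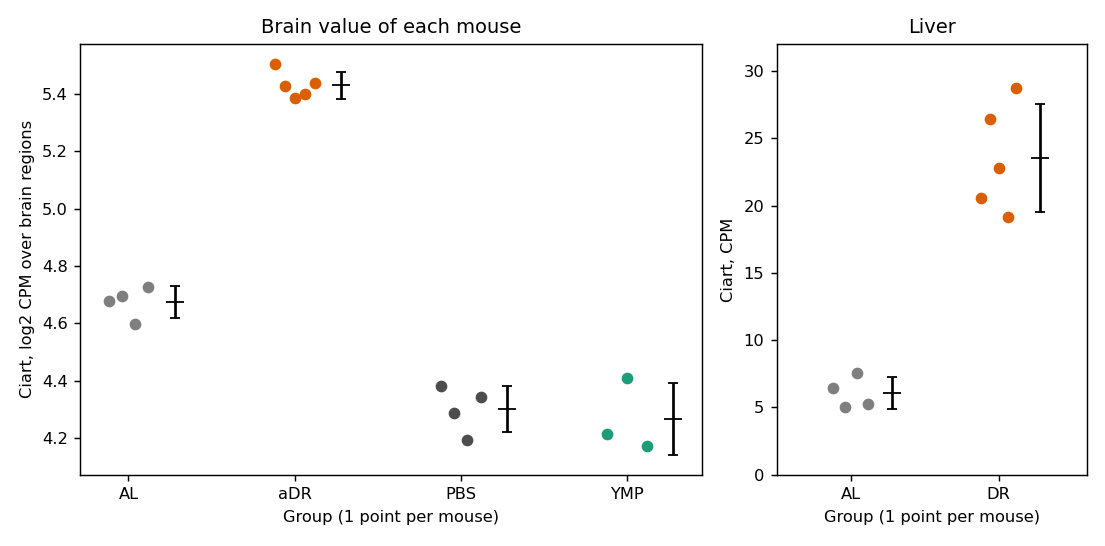
Left: Ciart value of each mouse over the brain regions (log2 CPM, y axis, which does not start at 0) by group. Right: Ciart level in liver (CPM). Points are mice and the black marks are the mean and SD. The AL and aDR points are separated in both panels, and the PBS and YMP points overlap.

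Plasma of young mice gave no detectable change of Ciart. The fitted difference was above 0 in 8 regions and below 0 in 7, from -0.40 in anterior hippocampus to 0.29 in corpus callosum, with a median of 0.0079. The edgeR adjusted p lay between 0.622 and 1 over the 15 regions, and 0 regions had an unadjusted p under 0.05. Within the regions 0.0127% of all gene-by-region tests of this contrast were called. Across the brain the mouse values were 4.21, 4.41 and 4.17 in YMP and 4.38, 4.29, 4.19 and 4.34 in PBS mice, which overlap. The difference was -0.036 (SE 0.073, 95% confidence interval -0.21 to 0.14, limma adjusted p 0.907). In this test 0% of 15768 genes were called. Whether the effect on Ciart differed between regions was tested directly, with an F of 0.861 and an edgeR adjusted p of 1 (unadjusted p 0.602), where 0.824% of genes were called. That test took each library as a separate sample, although libraries of 1 mouse share the animal. In 14 regions the diet difference exceeded the largest plasma difference of any region in size. Since Ciart was chosen by the diet contrast, nothing is read from this count. The plasma and diet differences were not tested against each other, since sex and experiment cannot be told apart.

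The anterior hippocampus came nearest to a change, with 14.3, 13.3 and 14.3 CPM in YMP and 21.2, 12.5, 17.9 and 20.7 CPM in PBS mice. The highest PBS libraries, of mice 72 and 84, correlated least with the mean profile of the region (r 0.37 and 0.60). PBS mice 76 and 80 had r of 0.79 and 0.83, and the YMP mice 0.86 to 0.90. The part of these profiles in the difference was not tested. The difference was -0.31 without PBS mouse 72 and -0.55 without PBS mouse 76. The PBS mouse 76 lay below all 3 YMP mice, so the groups overlapped, and the edgeR adjusted p was 0.683 (SE 0.18, 95% confidence interval -0.82 to 0.011). In corpus callosum, with 23.0 and 18.6 CPM in 2 YMP against 17.7, 14.5 and 17.2 CPM in 3 PBS mice, the groups did not overlap. In this region, with few libraries, 24.2% of genes had no overlap in either direction, against 9.24% of all gene-by-region comparisons. The edgeR adjusted p was 0.813. The choroid plexus genes summed to 9.41 and 22.6 CPM in these 2 YMP libraries and to 5231 to 19868 CPM in the PBS libraries, and their part in the difference was not tested. They were also lower in the YMP libraries of SVZ (30.6 to 55.2 CPM, against 2762 to 20467 CPM in PBS), where Ciart differed by -0.036 (SE 0.15). Choroid plexus had the widest spread, with 13.7, 24.7 and 10.1 CPM in YMP and 16.7, 19.0, 12.2 and 12.6 CPM in PBS mice. Its difference of 0.066 (SE 0.31) became -0.34 without YMP mouse 77 and 0.32 without YMP mouse 81. The choroid plexus genes themselves summed to 161 to 16802 CPM in these YMP libraries and to 8256 to 10788 CPM in PBS. Without YMP mice 73 and 77, whose profiles lay nearer to other regions, 1 YMP library was left and the difference was -0.58 (edgeR adjusted p 0.861, with the lone sample assumed to vary like the PBS group). In caudate putamen the difference went from -0.052 to -0.13 without PBS mouse 76, and in motor cortex from -0.12 to 0.039 without PBS mouse 72. In pons it went from 0.082 to 0.16 without YMP mouse 77, and in SVZ from -0.036 to -0.074 without YMP mice 73 and 77 and PBS mouse 72, none of them called. In entorhinal cortex, where the profile of PBS mouse 72 lay nearer to visual cortex, the difference was -0.20. It ranged from -0.34 to -0.092 when 1 mouse at a time was left out. In the remaining 12 regions the interval of the difference held 0 and its bounds lay between -0.62 and 0.53.

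The level of Ciart differed between brain regions in the PBS mice, which took no part in the choice of the gene (edgeR F 10.7, adjusted p 1.72e-09). Such a difference was called for 96.1% of 15415 genes. The tests between regions took each library as a separate sample, although the regions came from the same mice. With the mouse as block in the fit, the difference over all regions was still called. The pairs of regions below were tested without the block. Thalamus had the highest mean at 30.4 ± 2.72 CPM (SD, n = 4), followed by visual cortex at 28.9 ± 7.40 (n = 3), caudate putamen at 26.9 ± 6.79 (n = 4), motor cortex at 26.9 ± 5.48 (n = 4) and entorhinal cortex at 23.4 ± 3.30 (n = 4). A middle group ran from medulla at 20.1 CPM through posterior hippocampus (19.1), hypothalamus (18.8), cerebellum (18.7), anterior hippocampus (18.1) and SVZ (17.6) to corpus callosum (16.5). Choroid plexus at 15.1, pons at 14.6 and olfactory bulb at 10.2 ± 1.46 CPM (SD, n = 4) closed the order. Of the 14 pairs of neighbours in this order, 13 did not differ beyond their spread (edgeR adjusted p over all genes from 0.350 to 0.998). The exception was pons above olfactory bulb, with a log2 difference of 0.54 (SE 0.21, edgeR adjusted p 0.0256), where 12.995 to 17.0 CPM in 3 pons libraries stood above 8.08 to 11.4 CPM in 4 bulb libraries. These pairs were ordered on the same libraries, and their p-values were adjusted over genes but not over pairs. Thalamus exceeded olfactory bulb by 1.58 (SE 0.18, edgeR adjusted p 4.86e-10).

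The AL females showed a like order, with visual cortex (42.0 CPM), caudate putamen (39.1), motor cortex (37.7) and thalamus (35.9) at the top and olfactory bulb (13.6) at the bottom. Across the 15 regions the log2 means of AL and PBS mice were related with an r (Pearson) of 0.92 and a rho (Spearman) of 0.78, as a description, since regions of the same mice are not independent. Corpus callosum was 5th in AL and 12th in PBS mice. The AL mean was above the PBS mean in 15 of 15 regions, and sex, experiment and injection cannot be told apart there. Under restriction caudate putamen moved from 2nd place to first, and olfactory bulb rose from last to 12th, above hypothalamus, medulla and pons.

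The hypothalamus libraries differed in genes of the suprachiasmatic nucleus. The sum of 5 of its markers (Vip, Avp, Nms, Six6 and Lhx1) ran from 13.5 to 916 CPM over the 14 libraries with a median of 79.5 CPM, and the high sums came mostly from Avp, the vasopressin gene that other hypothalamic neurons also use. The sum is not particular to this nucleus, since its median was higher in visual cortex (130 CPM) and motor cortex (93.7 CPM). Ciart ran from 15.4 to 31.6 CPM in the same libraries. In the aDR mice the library with a sum of 853 CPM had 28.9 CPM of Ciart, and the library with a sum of 14.5 CPM had 28.1 CPM. In the AL mice, sums of 33.8, 35.5, 414 and 916 CPM went with 18.6, 18.7, 20.3 and 21.7 CPM of Ciart, in the same order. In the YMP mice, sums of 13.5, 21.6 and 391 CPM went with 15.4, 18.3 and 23.1 CPM, also in the same order. In the PBS mice, sums of 124, 353 and 593 CPM went with 19.3, 19.5 and 17.7 CPM, not in the same order. In the 3 aDR libraries other than the one at 853 CPM the sum was at most 27.2 CPM. The part of these genes in the differences of Ciart was not tested.

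The other clock genes were tested in the same mice, and each named gene was read beside its own values. Over the brain regions 6 of 24 listed clock genes rose and 2 fell in restricted mice (limma adjusted p under 0.05), where 0.922% of all genes were called. The median log2 difference of the list was 0.077, against -0.0062 for all genes. This count was 1 without AL mouse 66, 4 without AL mouse 68 or 69, 5 without AL mouse 63 or without aDR mouse 61, 62, 64 or 65, and 9 without aDR mouse 67. The share of all genes called in these fits without a mouse is not given here. Whether the clock genes lost or gained more calls than other genes was thus not tested. The list was chosen with results of these mice known, so its direction is not independent evidence.

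Among the activators, Arntl, the gene of BMAL1, fell by 0.32 (SE 0.035, limma adjusted p 0.00736) and had a lower fitted value in 15 of 15 regions. Clock itself (-0.091, adjusted p 0.136) and Npas2, its close relative (-0.081, adjusted p 0.364), were not called. Of the 7 repressors all had values above 0 and 3 were called. Per2 rose by 0.42 (SE 0.070, adjusted p 0.0332), Cry1 by 0.37 (SE 0.046, adjusted p 0.0131) and Per1 by 0.33 (SE 0.052, adjusted p 0.0311). Per and Cry proteins form the main repressor complex of the clock. Cry2 (0.17, adjusted p 0.0529) and Per3 (0.22, adjusted p 0.0979) missed the threshold. Of the 5 nuclear receptors, which act on the promoter of Arntl, limma called 0, also 0 at an unadjusted p under 0.05 (the REV-ERB genes stood at 0.034 for Nr1d1 and 0.098 for Nr1d2). Of the 4 bZIP factors that carry the rhythm to other genes, Dbp rose by 0.37 (SE 0.049, adjusted p 0.0164) and Tef by 0.17 (SE 0.029, adjusted p 0.0360). Nfil3, which competes with them for the D-box, fell by 0.21 (SE 0.026, adjusted p 0.0109). Usp2, a deubiquitinating enzyme with a strong daily rhythm, rose by 0.30 (SE 0.035, adjusted p 0.0109), and the other 4 kinase or ubiquitin genes were between -0.063 and 0.051 without a call. The difference of Ciart in the same mice, 0.76, was above each of these. Since Ciart was chosen by this contrast, nothing is read from that order.

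**Figure D4:**
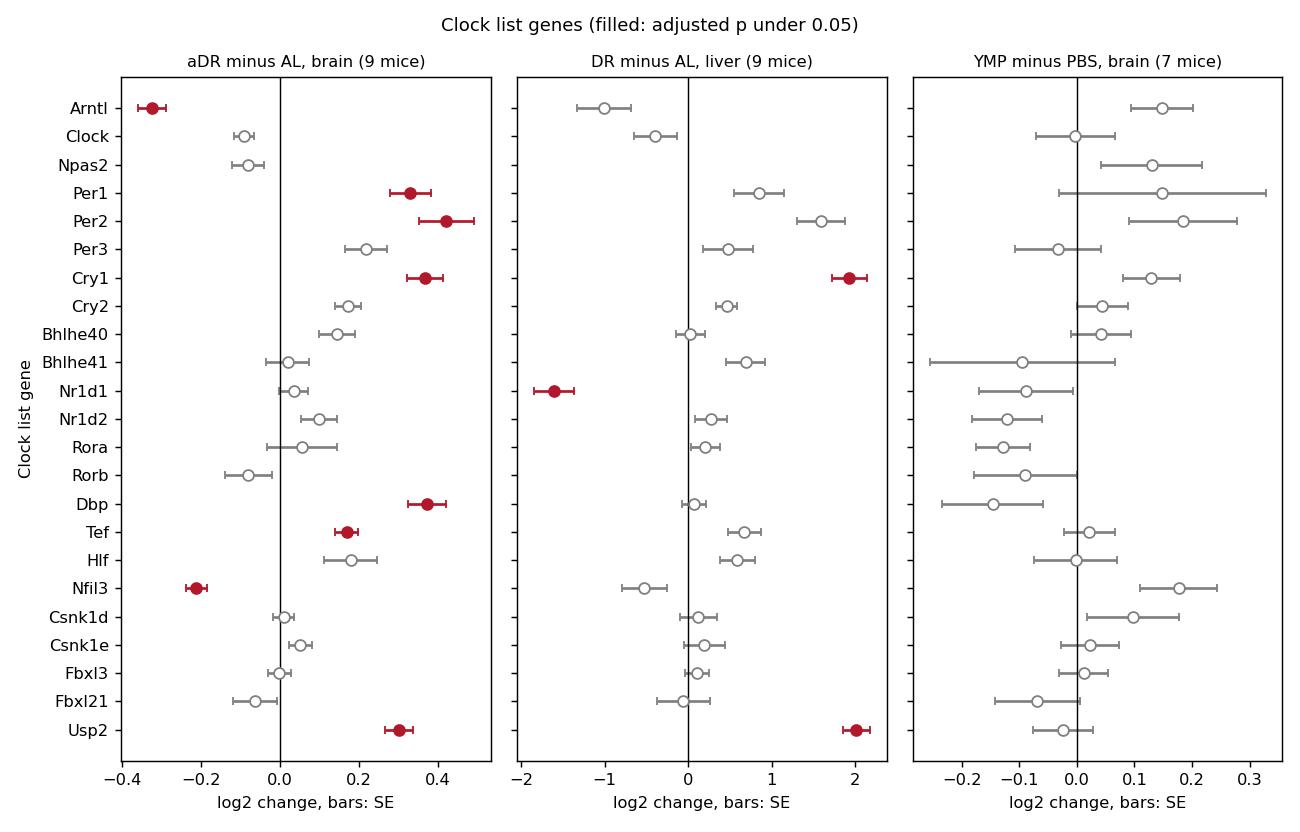
Log2 difference between treated and control mice (x axis, on its own scale in each panel) of clock genes (y axis, 23 of the list, grouped by role), with the SE as bars and filled points where the adjusted p was under 0.05. Left: diet over the brain regions, with 8 filled points. Middle: diet in liver, with 3 filled points. Right: plasma over the brain regions, with 0 filled points.

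Within single regions 14 of 360 tests of clock genes were called by edgeR for the diet (13 higher, 1 lower), where 0.0525% of all gene-by-region tests were. The count was 4 without AL mouse 66, 5 without AL mouse 68, 6 without aDR mouse 61, 7 without aDR mouse 64 and 9 without AL mouse 63, and DESeq2 gave 30. The share of all genes called in these other fits is not given here. The calls lay in 4 regions. In olfactory bulb Per2 (0.66), Dbp (0.51), Tef (0.44), Cry2 (0.37) and Nr1d1 (0.37) rose, with edgeR adjusted p from 0.00847 to 0.0432. In visual cortex Dbp (0.53), Cry1 (0.43) and Tef (0.26) rose, in cerebellum Per1 (0.69), Dbp (0.44) and Hlf (0.40) rose, and in motor cortex Dbp (0.44) and Per1 (0.38) rose while Arntl fell by 0.53. Dbp, from 104 to 141 CPM in motor cortex and from 109 to 160 CPM in visual cortex, was called in the 4 regions. The order of regions was not the same for each gene. In caudate putamen, where Ciart differed by 1.23, Cry1 differed by 0.19 (SE 0.13), and in medulla, where Ciart differed by 0.31, Cry1 differed by 0.55 (SE 0.11), neither called. Dbp differed by 0.45 (SE 0.21) in caudate putamen and by 0.069 (SE 0.098) in medulla, also without a call.

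In liver 22 clock genes passed the filter on low counts, and 4 were called by edgeR, where 0.22% of genes were. Usp2 rose from 25.7 to 104 CPM (log2 difference 2.01, SE 0.16, adjusted p 8.82e-04), and Cry1 from 3.86 to 14.7 CPM (1.93, SE 0.21, adjusted p 0.00470). Nr1d1, a REV-ERB gene, fell from 117 to 38.5 CPM (-1.60, SE 0.24, adjusted p 0.0254). Dbp was level in liver, at 165 CPM in DR and 157 CPM in AL mice (0.069, SE 0.14, adjusted p 0.959), while it was among the called genes in brain. Per2 had a difference of 1.59 (SE 0.29) with an adjusted p of 0.0674. The count was 2 without DR mouse 62, 64 or 65 or without AL mouse 63 or 66. For these fits too the share of all genes called is not given here, so nothing is read from the lower count.

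For plasma limma called 0 of 24 clock genes over the brain regions. An unadjusted p under 0.05 was found for 4 of them, and for 1275 of all 15768 genes. Within regions edgeR called 0 of 360 tests, and 32 had an unadjusted p under 0.05. Among all genes of a region that number ran from 150 of 13135 in pons to 1910 of 14120 in SVZ. The median of the list over the brain regions was 0.0051, against -0.0037 for all genes. The largest values were those of Per2 (0.18, SE 0.094, limma adjusted p 0.652) and Nfil3 (0.18, SE 0.067, adjusted p 0.554). With every library in the fit and the mouse as replicate block, limma called 3, Per2 (0.22, adjusted p 0.0310), Nfil3 (0.22, adjusted p 0.0384) and Cry1 (0.16, adjusted p 0.0486), and DESeq2 called 1 within regions, Cry1 in caudate putamen (0.48, adjusted p 0.0156). Ciart was not called in these fits either. The share of all genes called in them is not given here, so nothing is read from these calls.

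The glucocorticoid response was looked at beside the clock because adrenal steroids also have a daily rhythm. Over the brain regions 7 of 19 listed genes rose with the diet and 19 of 19 had values above 0, with a median of 0.50. Of all genes 0.922% were called and 46.6% had values above 0, with a median of -0.0062. The glucocorticoid list too was chosen with results of these mice known, so its direction is not independent evidence. Plin4, a lipid droplet coat protein, rose most, by 2.03 (SE 0.25, limma adjusted p 0.0131), ahead of Fmo2 at 1.36 and Hif3a at 1.09 (both limma adjusted p 0.0233). For plasma 0 of 19 were called by limma. An unadjusted p under 0.05 was found for 2 of them, and for 1275 of all 15768 genes. Values above 0 were found for 14, where 48.2% of all genes had them, and the median was 0.25. In liver 3 of 17 were called, Plin4 (2.80, edgeR adjusted p 0.00495), Zbtb16 (1.66, adjusted p 0.0154) and Fmo2 (0.95, adjusted p 0.0254), while 12 had values above 0 and 5 below, the lowest being Mt2 (-0.90) and Cdkn1a (-0.73), neither called.

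The genes whose level followed that of Ciart most closely were named by the Pearson r of log2 CPM over libraries, a description without a p, since libraries of the same mouse share the animal and its treatment. Over the 131 diet brain libraries, after the region means had been removed, these were Cirbp (0.82) and Rbm3 (0.79), both cold-inducible RNA-binding proteins, Dbp (0.78), Fmo2 (0.75) and Plin4 (0.75). This measure holds the diet difference itself, and each of the 5 genes was higher in 15 of 15 regions in restricted mice. Arntl had an r of -0.65, among the lowest of 15615 genes. When the group means had been removed as well, so that the treatment took no part, the closest of 15561 genes over 229 libraries of both experiments were Dbp (0.57), Cdc42ep3 (0.52), Ckb (0.50), Cst6 (0.46) and Stard10 (0.46). Dbp had 0.47 within the diet and 0.64 within the plasma groups. These values of r include the libraries that lay nearer to another region, and r without them was not computed. Of the other clock genes Hlf (0.38), Csnk1e (0.33), Usp2 (0.31) and Nr1d1 (0.30) had higher values of r than Cry1 (0.22), Per2 (-0.063) and Arntl (-0.12), and Csnk1d (-0.27) had the lowest. Over the region means of 15 regions in control mice the closest genes were Senp2 (0.91), Nudt18 (0.90), Fam49b (0.88), Smim10l1 (0.85) and Nr3c1 (0.85), the gene of the glucocorticoid receptor. None of these 5 was called for the diet (limma adjusted p from 0.188 to 0.957).

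**Figure D5:**
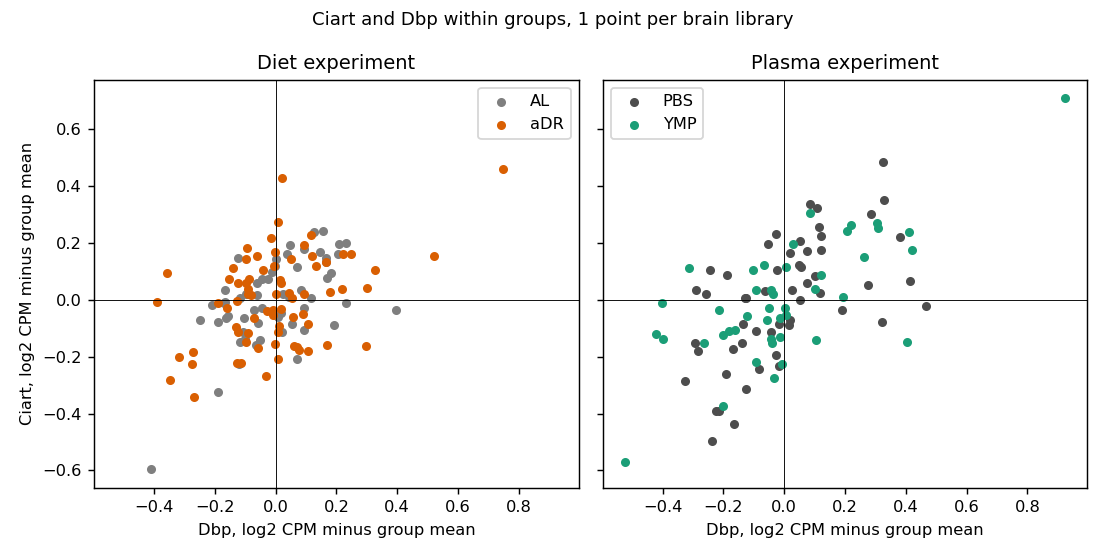
Deviation of Ciart (y axis) and of Dbp (x axis) from the mean of their region and treatment group, in log2 CPM, with 1 point per brain library. Left: 131 libraries of the diet experiment (r 0.47). Right: 98 libraries of the plasma experiment (r 0.64). Libraries with more Dbp than their group also tended to hold more Ciart in both panels. Extreme points include posterior hippocampus of AL 68 (Ciart -0.60, Dbp -0.41) and choroid plexus of YMP 77 (0.71 and 0.93). Both libraries had a profile nearer to another region, and r without them was not computed.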

How the data were processed

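Bulk mRNA libraries of 15 brain regions (131 diet and 98 plasma libraries) and 9 livers were made by Smart-Seq2 and Nextera XT without strand, per the labels' protocols. The deposited values are whole-number read counts per gene, and the authors' normalisation is not part of them. The submitters' processing notes name Trim Galore 0.3.7, STAR 2.5.3a, GRCm38 and DESeq2, and the counting program and annotation are not given in the sources used here. Groups came from the labels of each library, and Ciart and the gene lists were chosen with earlier results of these data known.

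Counts were fitted per tissue with edgeR 4.0.16 (R 4.3.3, quasi-likelihood test, TMM, filterByExpr at min.count 10 and min.total.count 15). The plasma effect by region and the region levels in PBS mice were tested with edgeR F tests. These took each library as a separate sample, and the mouse entered only in an alternative fit. Across regions, limma 3.58.1 was fitted to 1 value per mouse, taken as the mouse term when log2 CPM (prior count 2) were regressed on both region and mouse. P-values were adjusted over all genes tested (Benjamini-Hochberg) and called under 0.05. Ciart stayed in each diet fit, and its p-values there are not given. Printed CPM use 1 TMM scaling over the brain libraries and 1 over the livers. Depth limits precision, and 6 libraries had under 2 M counts. No 2 libraries of a group were copies (smallest chi-square per degree of freedom 1.29 over 357 pairs).

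Libraries of 1 mouse share the animal, and their deviations from the group means had a mean correlation of 0.048 (diet) and 0.118 (plasma), against -0.0059 and -0.020 between mice. The alternatives were other size factors, no filter, DESeq2 1.42.0, another prior count, the mouse as block, depth and region exclusions, each mouse left out and, chosen after seeing the data, the 15 libraries that stood apart left out. Of these, 12 correlated best with the mean profile of another region (log2 of CPM plus 1, genes over 5 CPM on average, the library itself left out), and 3 were pons libraries with under 10 CPM of hindbrain markers. On simulated counts for the plasma experiment in olfactory bulb (13915 genes), edgeR recovered 87% of changes of log2 1, and across regions (15702 genes) limma recovered 93% of changes of log2 0.5. The simulated spread was fixed in advance, the same for all genes, and the changes across regions were placed in well-counted genes only. The coefficient of variation of Ciart reached 47.3% in YMP choroid plexus and 25.6% in PBS visual cortex. The recovered shares are therefore not the power for Ciart. Named genes were Ciart, the clock list by role, up to 4 glucocorticoid genes and the 5 genes most like Ciart by each of 3 measures. Values of clock genes that were not called were added after they had been seen. The counts over the clock list include 1 gene that is not reported here. Promoter sequences are from RefSeq.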

Additional observations from a re-analysis of the deposited data

Results flagged for a closer look

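Over 39 groups of 4 or 5 libraries and 3 groups of mouse values, 42 in all, 2 held a Ciart level far from the rest of the group, and chance gives about 1 in 20, here 2.1. In posterior hippocampus AL mouse 68 had 15.4 CPM, while the other AL mice had 26.1 to 27.7 CPM. In caudate putamen PBS mouse 84 had 37.0 CPM, while the other PBS mice had 22.0 to 24.4 CPM. Without that mouse the plasma difference in caudate putamen was 0.14 on the log2 scale, in place of -0.052.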

How the results depend on the processing

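The diet difference of Ciart stayed above 0 in each region and in liver under 62 alternative settings and 149 fits without a mouse, and it ranged from 0.73 to 0.77 across the brain without 1 mouse. No diet value of Ciart was tested. Posterior hippocampus fell to 0.30 without AL mouse 68. With CPM on plain totals, a setting chosen after seeing the data, 13 regions had no overlap. Without the 15 libraries that stood apart from their region, also chosen after seeing the data, 14 regions had no overlap, the diet difference across the brain was 0.75, and the plasma difference turned in choroid plexus (-0.58) and motor cortex (0.039), while the clock gene counts stayed at 8 and 14 for the diet and 0 for plasma.

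The plasma difference of Ciart was not called in any of the 62 alternative settings or the 105 fits without a mouse. Its sign changed in 17 of the latter. Without 1 mouse it ranged from -0.18 to 0.14 in caudate putamen, -0.075 to 0.097 in cerebellum, -0.34 to 0.32 in choroid plexus, -0.16 to 0.14 in hypothalamus, -0.26 to 0.039 in motor cortex, -0.17 to 0.065 in SVZ, -0.10 to 0.21 in thalamus, -0.027 to 0.31 in visual cortex and -0.11 to 0.0086 across the brain. These regions had 3 or 4 mice a group, which limits what could be detected.

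With the mouse as replicate block the diet difference of Ciart was 0.79 and the plasma difference -0.054 (limma adjusted p 0.734). The block moved the clock genes called across the brain from 8 to 12 for the diet and from 0 to 3 for plasma, and it changed no call of Ciart. DESeq2 called 30 in place of 14 clock tests within regions for the diet and 1 in place of 0 for plasma, and the cause was not tested. The clock counts under these other settings were not set against the share of all genes called in the same fits. Whether the clock genes gained more calls than other genes was thus not tested. Without 1 mouse the diet counts ranged from 1 to 9 across the brain, from 4 to 15 within regions and from 2 to 5 in liver, and of 72 such fits of called clock genes 30 lost the call. These counts too were not set against the share of all genes called in the same fits.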
